A study of Mus musculus with 4 samples.

Results

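The genes described here are 343 of the 56239 annotated mouse gene models in the deposited table: autosomal genes that stretch over at least 200 kb and were expressed in CD4+CD8+ double-positive (DP) thymocytes. Span was the distance from the first base of a gene's first exon to the last base of its last exon, and expression meant at least 200 counts summed over the 4 libraries. Loci of antigen receptor segments were to be left out, and 0 genes met the other criteria and were removed for that reason. Of 1055 autosomal gene models with such a span, 712 were under the count minimum, 330 of them with 0 counts in all. The genes were thus chosen by annotated span and by counts summed over both genotypes, so that a gene near the count minimum could reach it through 1 genotype. For 8 members, Itga9 among them, the counts of the lower genotype fell short of an equal part of the minimum, and the median log2 fold change was 0.21 with and without them. All 343 genes passed the low-count filter of the test, which kept 15070 genes.

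RNA-seq was done on DP thymocytes sorted from C57BL/6 mice. The WT group is labelled WT(CHAF1bfloxp/floxp) and the KO group KO(Cd4-cre;CHAF1bfloxp/floxp), with 2 libraries each, so that both groups carry loxP-flanked Chaf1b alleles and the groups differ in Cre recombinase driven by Cd4 regulatory sequences. Cd4-cre acts in T-lineage cells that have switched on Cd4, which thymocytes do as they become DP cells. The labels give no age, no sex and no number of mice behind a library. Replicate 1 was female and replicate 2 male in both genotypes, judged by Xist: replicate 1 had 47368 counts in WT and 47301 in KO, while replicate 2 had 8 and 12. KO minus WT in replicate 1 is called the female pair below, and in replicate 2 the male pair.

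Chaf1b encodes a subunit of chromatin assembly factor 1, which loads H3-H4 histones onto DNA behind the replication fork. In a gene with a very long span nearly all of the sequence is intron, so that RNA polymerase must travel far, and splicing must join distant exons, for each finished transcript. Such genes tend to replicate late, and several lie at common fragile sites, regions prone to breakage when replication is disturbed. In T-lineage cells the group holds many signalling, cytoskeletal and transcription factor genes. The comparison asks how transcript levels of these genes differ between the genotypes, and how the difference relates to span.

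To show what the start of such a gene looks like, 120 bases just before the annotated 5′ end are printed for 6 members, on GRCm38.p6 with the start-site windows of RefSeq as the source. They are the genes Erc1 and Peak1, which were higher in KO by a test given below, and 4 of the longest genes, Macrod2, Sdk1, Camta1 and Inpp4b. Other members of those groups had no RefSeq window that covered these bases, or had another annotated exon there. Capitals mark a GC box, the letters GGGCGG on either strand, which is a typical binding motif of Sp family factors. The windows lie at chr6:119848168-119848287, minus strand (Erc1), chr9:56418068-56418187, minus strand (Peak1), chr2:140395189-140395308, plus strand (Macrod2), chr5:141241370-141241489, plus strand (Sdk1), chr4:151861877-151861996, minus strand (Camta1) and chr8:81342436-81342555, plus strand (Inpp4b), each read 5′ to 3′ on its gene's strand.
Erc1: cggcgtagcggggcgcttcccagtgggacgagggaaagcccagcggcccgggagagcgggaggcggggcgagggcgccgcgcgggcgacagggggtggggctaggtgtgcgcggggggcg
Peak1: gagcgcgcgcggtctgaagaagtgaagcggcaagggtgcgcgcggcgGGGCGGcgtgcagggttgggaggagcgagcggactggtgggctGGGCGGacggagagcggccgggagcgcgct
Macrod2: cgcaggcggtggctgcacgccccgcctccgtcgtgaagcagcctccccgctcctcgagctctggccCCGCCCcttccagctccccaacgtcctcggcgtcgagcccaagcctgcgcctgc
Sdk1: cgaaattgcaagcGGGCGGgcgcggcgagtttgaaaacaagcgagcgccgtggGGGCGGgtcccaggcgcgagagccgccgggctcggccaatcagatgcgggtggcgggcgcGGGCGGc
Camta1: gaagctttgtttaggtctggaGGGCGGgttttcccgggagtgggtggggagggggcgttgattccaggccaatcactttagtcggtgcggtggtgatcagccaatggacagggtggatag
Inpp4b: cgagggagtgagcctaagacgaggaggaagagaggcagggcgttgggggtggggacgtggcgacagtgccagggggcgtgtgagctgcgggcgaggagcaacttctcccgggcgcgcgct

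The 6 windows are rich in G and C, from 58.3% in Camta1 to 80.8% in Erc1, and hold from 5 CG dinucleotides in Camta1 to 20 in Sdk1. GC boxes numbered 3 in Sdk1, 2 in Peak1, 1 each in Macrod2 and Camta1 and 0 in Erc1 and Inpp4b. Over the full windows of 300 bases, 250 before and 50 after the start, 214 of the 343 members (62.4%) matched a start within 1000 bases of their annotated 5′ end. Their median GC content was 66.3%, against 60.7% in 8578 other tested autosomal genes matched the same way. A GC box on either strand stood in 72.4% of the members' windows and in 64.2% of the others', against 35.7% of all 32851 windows of that length. Without the distance limit, which was set after the first values had been seen, 266 members matched and the shares were 66.2% and 62.8%. TATAAA on either strand was in 3.74% of the members' windows and 6.87% of the others', and the ETS motif CCGGAAG in 13.1% and 20.1%. The E box CACCTG was in 17.8% and 17.7%, and the RUNX core ACCACA in 8.41% and 12.6%. These shares describe letters in a window and were not tested.

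Spans ran from 200030 bases to 1997657 bases, with a median of 281091. Of the 343 genes, 195 spanned 200 to 300 kb, 111 spanned 300 to 500 kb and 37 spanned 500 kb or more, 3 of these over 1000 kb (Macrod2, Fhit and Pde4d). Exons made up a median of 3.15% of the span, against 22.0% in the 10581 shorter autosomal genes with at least 200 counts. The members nevertheless had more exonic sequence, a median of 9651 against 4255 bases, in 23 against 9 separate exon blocks. The longest stretch without an exon had a median of 78146 bases, or 26.3% of the span. It was the first one from the 5′ end in 23.9% of the members and 34.1% of the 9789 shorter genes that had such a stretch. By annotation 339 members are protein coding. Exons of 131 members (38.2%) overlap an exon of another gene model, against 37.7% of the shorter genes, and reads shared by such exons were left out of the deposited counts.

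Levels compared per length ranged widely. The highest mean levels were those of Camk4, a calcium- and calmodulin-dependent kinase of T cells, at 97.2 FPKM (fragments per kilobase of exon, scaled to library size), of Ablim1, an actin-binding protein, at 95.1 FPKM, and of Fam107b at 93.1 FPKM. Themis, a protein required for positive selection of thymocytes, had 75.9 FPKM and Prkcb, a protein kinase C, 62.6 FPKM. The median member had 3.34 FPKM and the lowest 0.121 FPKM. At the span minimum the genes just inside were Pcbp3 (200030 bases, log2 fold change -0.16), Umad1 (200182 bases, -0.26) and 4930402H24Rik (200206 bases, -0.39), and those just outside were Atp9b (199919 bases, -0.41), Morc1 (199663 bases, 0.42) and Clec16a (199539 bases, 0.41). At the count minimum, Ksr2 had 201 counts and Hecw2 and Itga9 204 each, while Fggy had 198 and Srgap3 and Runx2 196 each.

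Library totals ran from 21068760 to 27369874 counts, and 3 counts, the limit that a count of 0 allows, correspond to 0.106 to 0.139 CPM (counts scaled to library size). The targeted transcript Chaf1b had 27.9 and 31.7 CPM in the WT libraries and 12.2 and 14.8 CPM in the KO libraries, counted over all its exons, while the labels do not say which exons the allele removes. KO replicate 1 stood apart: mitochondrially encoded transcripts took 3.30% of its counts, against 1.33% to 2.03% in the other libraries, and ribosomal protein genes 4.45%, against 2.66% to 3.30%. All 10 DP markers were measured, with sums of 16766 and 16692 CPM in WT and 19106 and 17442 CPM in KO, and 1 of them (Cd1d1) was lower in KO in the sex-term fit described below. Lists of B cell, dendritic, NK and gamma-delta, erythroid and neural long-gene markers (23 genes) each summed to at most 3.14 CPM in any library, with Ncr1 and Lrp1b among the genes at 0. The macrophage and granulocyte list (6 genes, S100a8 at 0) summed to 15.7 to 17.3 CPM in WT and 9.56 to 12.5 CPM in KO, and the epithelial and stromal list (8 genes, Foxn1 with 1 count in all) to 153 to 175 CPM in WT and 146 to 184 CPM in KO, most of it from Pecam1. Of the 3 tested genes of the latter, 1 was higher in KO in the sex-term fit, Pdgfrb, a growth factor receptor of pericytes and other mesenchymal cells, with 40 and 47 counts in WT and 173 and 87 in KO. Liver transcripts (6 genes) summed to 341 and 74.3 CPM in WT and 314 and 4.98 CPM in KO. Of them 1, Ttr, was lower in the sex-term fit, with 15.4 and 4.41 CPM in WT and 8.42 and 0.602 CPM in KO. The genotypes overlapped in Ttr. The part of these other cell types in the results was not tested. Sums over a list, here and below, used library totals alone, while CPM of single genes also used the scaling factors of the processing section.

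The long genes were mostly higher in KO, by small amounts that differed in size between the pairs. Their median log2 fold change was 0.21 (25th percentile -0.0039, 75th percentile 0.40), against -0.01 for the 14057 other tested autosomal genes. It was 0.085 without KO replicate 1, 0.34 without KO replicate 2 and 0.13 with library totals as scaling. Taken by pair, the female median was 0.35 for the long genes and -0.02 for the others, and the male median 0.08 and -0.01. Together the long genes took 2.89% and 2.82% of the autosomal counts in WT replicates 1 and 2 and 3.44% and 3.01% in KO replicates 1 and 2. Both KO shares were above both WT shares, with KO replicate 1 the highest, and the means were 2.85% ± 0.0520 and 3.23% ± 0.306 (SD, n = 2). In bulk libraries, fewer cells of a type and less RNA per cell cannot be told apart.

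Counted gene by gene, 195 of the 343 (56.9%) were higher in KO in both pairs and 53 (15.5%) lower in both, while over all tested genes 35.5% were higher in both and 36.7% lower in both. Both KO libraries were above both WT libraries for 169 members (49.3%) and below them for 40 (11.7%), with 27.9% and 28.4% over all tested genes. KO replicate 1 was the highest of the 4 libraries for 231 members (67.3%), a count that was not taken over all tested genes. Without that library, KO replicate 2 lay above both WT libraries for 183 members (53.4%; all tested genes 39.2%) and below both for 81 (23.6%; all tested genes 39.8%). Of the 95 members that went opposite ways in the pairs, 73 were higher in the female pair and lower in the male pair. This split was not taken over all tested genes either. In the female pair alone, 78.1% of the members were higher (all tested genes 49.4%), and in the male pair 63.3% (all tested genes 49.4%). The difference was larger in the female pair for 255 members (74.3%; all tested genes 49.6%). The plot of the distribution in each pair shows the whole set beside the shorter genes.

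**Figure D1:**
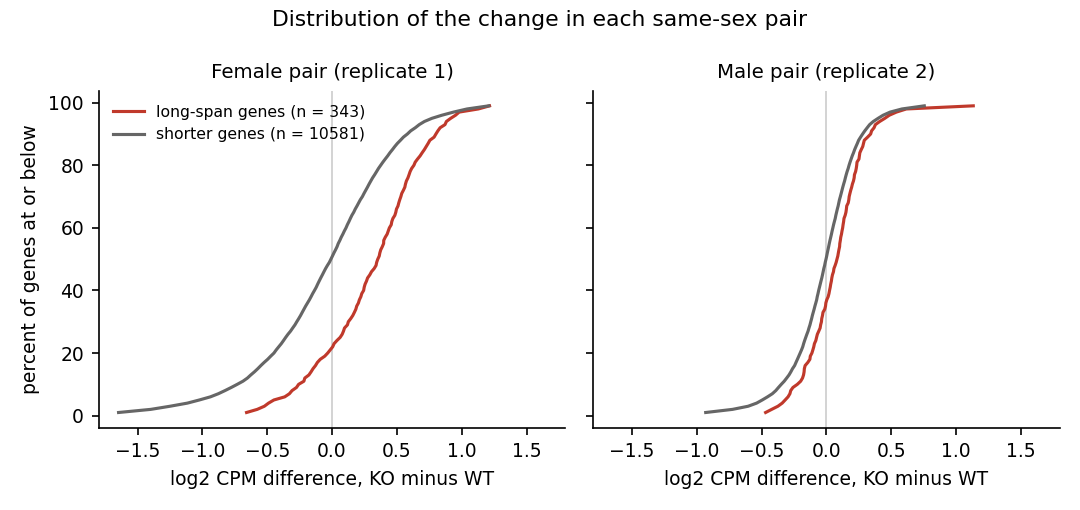
Cumulative percent of genes (y axis) against the log2 CPM difference, KO minus WT (x axis), in the female pair (left) and the male pair (right), for the 343 long-span genes (red) and 10581 shorter autosomal genes with at least 200 counts (grey), drawn from the 1st to the 99th percentile. The red curve lies to the right of the grey one over most of its course in both panels, with medians of 0.35 and -0.01 on the left and 0.08 and -0.0027 on the right.

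Among autosomal genes with at least 200 counts, each longer span class had a higher median. The median log2 fold change was -0.08 in 3123 genes under 10 kb, -0.04 in 3605 genes of 10 to 30 kb, 0.05 in 3064 genes of 30 to 100 kb and 0.16 in 789 genes of 100 to 200 kb. Among the long genes it was 0.18 at 200 to 300 kb, 0.26 at 300 to 500 kb and 0.31 at 500 kb or more. The order was the same in the female pair, from -0.13 in the shortest class to 0.30, 0.45 and 0.46 in the 3 long classes. In the male pair it ran from -0.04 in the shortest class to 0.07 at 100 to 200 kb, and then 0.06, 0.09 and 0.13 in the 3 long classes. Genes higher in both pairs made up 31.3% of the shortest class and 51.8%, 60.4% and 73.0% of the 3 long classes. Of the genes of 100 to 200 kb, just short of the minimum, 58.4% were higher in both pairs.

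**Figure D2:**
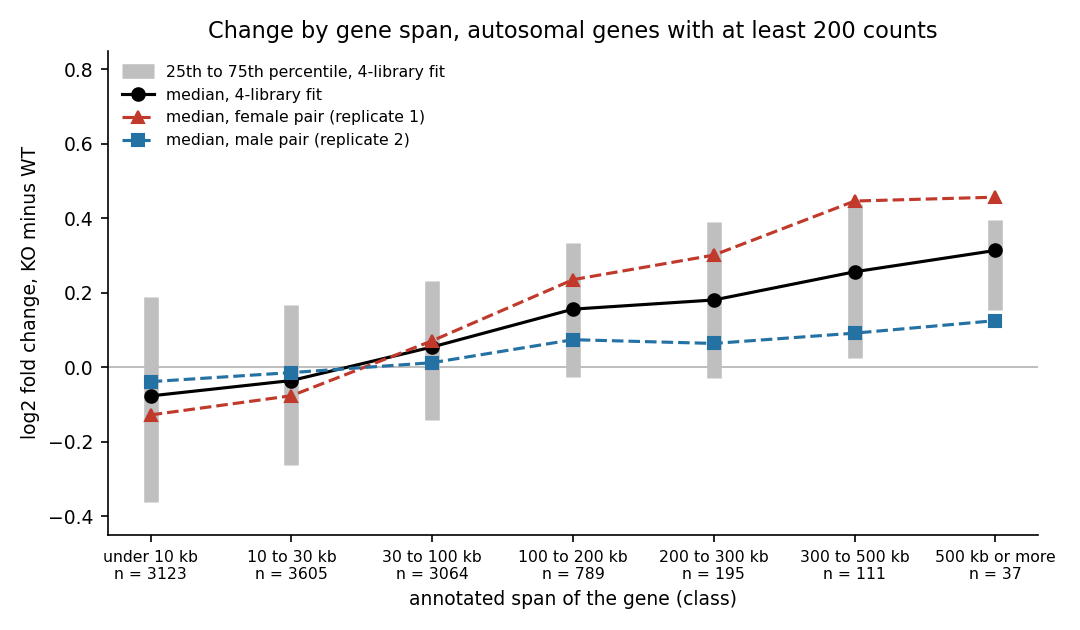
Median log2 fold change, KO minus WT (y axis), in 7 classes of annotated span (x axis, number of genes under each class) for autosomal genes with at least 200 counts: black circles, fit to all 4 libraries, with grey bars from the 25th to the 75th percentile; red triangles, female pair; blue squares, male pair. The black medians climb from -0.08 under 10 kb to 0.31 at 500 kb or more, and the blue ones from -0.04 to 0.13.

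Single genes scattered widely around these medians. Across the 343 members, span and log2 fold change had a Spearman correlation of 0.15 (female pair 0.15, male pair 0.07), and across all 14400 tested autosomal genes 0.15 (0.18 and 0.07). These are descriptions across genes of the same 4 libraries, which share depth and scaling and are not replicates. Within the members the correlation with exonic length was 0.13, with exonic GC content 0.10, and with the longest exon-free stretch -0.0012. With mean level it was 0.080 (female pair 0.045, male pair 0.14). Across all tested autosomal genes these were 0.098 for exonic length, -0.062 for GC content, 0.15 for the longest stretch and 0.093 for level. The plot of change against span shows the 3 longest genes near 0, and the 3 largest differences, those of Itga9, Gfra1 and nonagouti, among genes of 200 to 300 kb.

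**Figure D3:**
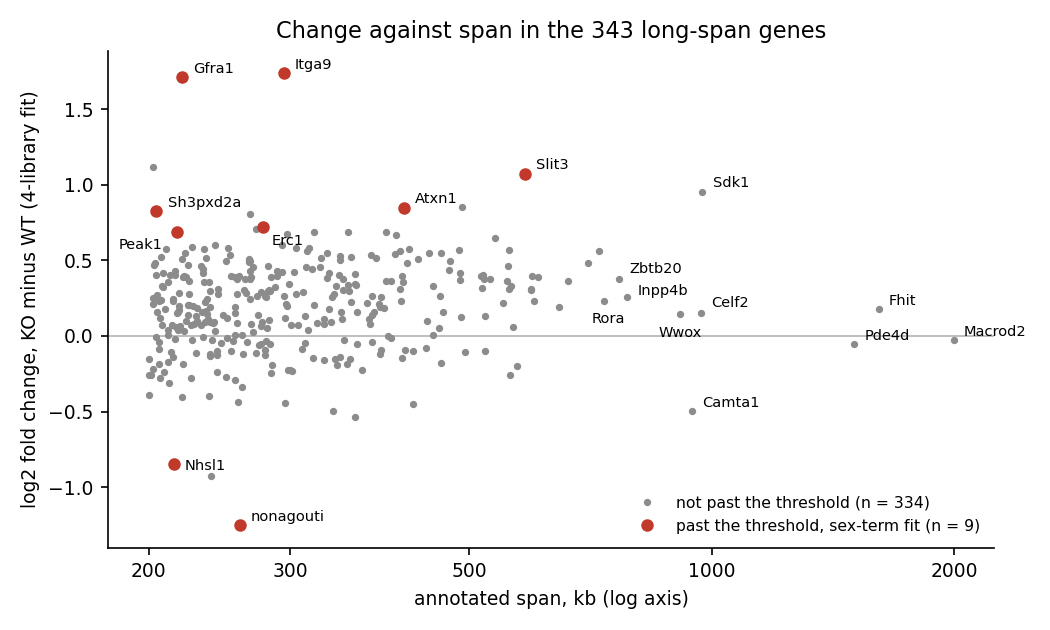
Log2 fold change, KO minus WT in the fit to all 4 libraries (y axis), against annotated span in kb on a log axis (x axis) for the 343 long-span genes; red points, 9 genes past the threshold in the sex-term fit; grey points, the other 334. The points range from -1.25 for nonagouti to 1.74 for Itga9, and Macrod2, Fhit and Pde4d at the right end lie between -0.05 and 0.18.

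Exonic length, level and base composition differ between long and short genes, so the difference in medians was also taken within quintiles of each. Within quintiles of exonic length, members exceeded other genes by 0.09 (32 members), 0.21 (52 members) and 0.17 (247 members) in the 3 upper quintiles, and by 0.0030 and 0.26 in the lower 2, which held 4 and 8 members. Within the 4 quintiles of mean level that held members the difference ran from 0.20 to 0.29, and within quintiles of exonic GC content from 0.17 to 0.33. In the male pair it was positive in every one of these strata but the one with 4 members, where it was -0.16. The 131 members with overlapping exons had a median log2 fold change of 0.23 and the 212 without overlap 0.21.

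No single long gene passed the threshold in the fit without a covariate. edgeR's quasi-likelihood test with Benjamini-Hochberg adjustment over 15070 genes called 0 members higher (all tested genes 0.00664%) and 0 lower (all tested genes 0.0%) at an adjusted p of 0.05. At an unadjusted p under 0.05, 57 members (16.6%) were higher and 9 (2.62%) lower, against 8.14% and 8.69% of all tested genes. In the same design DESeq2 called 7 higher and 1 lower of the 322 members to which it gave an adjusted p (2.17% and 0.311%, against 1.66% and 2.67% of 10687 genes), and limma-voom called 0. In the sex-term fit, the same edgeR test with the replicate number as a further term and 1 residual degree of freedom, 7 members (2.04%; all tested genes 1.01%) were higher and 2 (0.583%; all tested genes 2.2%) lower, 9 in either direction (all tested genes 3.21%). Without the 8 members that reached the count minimum through 1 genotype, 6 of 335 (1.79%) were higher and 2 lower. The counts changed with the libraries. Without KO replicate 1 the edgeR test with no covariate called 7 members higher (2.04%; all tested genes 1.09%) and 2 lower (0.583%; all tested genes 2.22%). Without KO replicate 2 it called 146 higher (42.6%; all tested genes 15.8%) and 22 lower (6.41%; all tested genes 16.5%).

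Gfra1 and Slit3 rose most among the genes past that threshold, apart from Itga9, which is described without a test. Gfra1 (ENSMUSG00000025089, chr19:58235604-58455909) encodes the GPI-anchored co-receptor for the growth factor GDNF. It had 10.1 and 5.33 CPM in WT replicates 1 and 2 and 27.3 and 23.2 CPM in KO replicates 1 and 2. Both KO libraries were above both WT libraries, with KO replicate 1 the highest. The log2 fold change was 1.77 ± 0.21 (SE, edgeR sex-term fit, adjusted p = 0.00578), and its exons overlap those of another gene model. Itga9 (ENSMUSG00000039115, chr9:118606690-118901003), an integrin alpha chain that pairs with beta 1, had 1.01 and 1.02 CPM in WT and 3.44 and 3.38 CPM in KO, from 24 and 29 against 78 and 73 counts. The libraries of each genotype lay close together and the genotypes apart, with a log2 fold change of 1.74. With 204 counts in all, it entered the group through its KO counts, so its difference is given as a description.

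Slit3 (ENSMUSG00000056427, chr11:35121224-35708507) encodes a secreted ligand of Robo guidance receptors and was the only gene of 500 kb or more past the threshold. It had 4.05 and 4.09 CPM in WT and 7.28 and 9.90 CPM in KO, a log2 fold change of 1.06 ± 0.25 (edgeR sex-term fit, adjusted p = 0.0442). Unlike most members it was highest in KO replicate 2, and the male pair showed the larger difference, 1.26 against 0.83. Sh3pxd2a (ENSMUSG00000053617, chr19:47260174-47464401), an adaptor of the actin-rich, matrix-degrading protrusions called podosomes, had 113 and 94.4 CPM in WT and 224 and 144 CPM in KO. Its log2 fold change was 0.80 ± 0.15 (edgeR sex-term fit, adjusted p = 0.0265), and KO replicate 1 stood well above the other libraries. Peak1 (ENSMUSG00000074305, chr9:56201126-56418067), a pseudokinase linked to the cytoskeleton, had 49.9 and 38.2 CPM in WT and 85.9 and 56.0 CPM in KO. The groups did not overlap, and the log2 fold change was 0.67 ± 0.14 (edgeR sex-term fit, adjusted p = 0.0336).

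The other 2 higher genes were Atxn1 and Erc1. Atxn1 (ENSMUSG00000046876, chr13:45549755-45965008) encodes ataxin 1, a nuclear protein that binds the repressor Capicua. It had 33.0 and 34.6 CPM in WT and 77.6 and 44.1 CPM in KO, with the groups apart and KO replicate 1 far above KO replicate 2. Its log2 fold change was 0.79 ± 0.19 (edgeR sex-term fit, adjusted p = 0.0459), with 1.23 for the female pair and 0.35 for the male pair. Erc1 (ENSMUSG00000030172, chr6:119570796-119848167), a Rab6-binding scaffold of vesicle traffic whose start is printed above, had 26.9 and 26.4 CPM in WT and 52.4 and 35.6 CPM in KO. Its log2 fold change was 0.70 ± 0.17 (edgeR sex-term fit, adjusted p = 0.0459). Exons of Atxn1, Erc1 and Peak1 overlap those of other gene models.

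Nonagouti and Nhsl1 were lower in KO. Nonagouti (gene symbol a, ENSMUSG00000027596, chr2:154791402-155051012), which encodes the agouti signalling protein of coat colour, had 7.68 and 9.45 CPM in WT and 2.21 and 5.00 CPM in KO. Both KO libraries were below both WT libraries, with KO replicate 1 the lowest, and the log2 fold change was -1.33 ± 0.28 (edgeR sex-term fit, adjusted p = 0.0336). Its exons, 1169 bases in all, overlap those of another gene model. Nhsl1 (ENSMUSG00000039835, chr10:18318985-18533892), a relative of the Nance-Horan syndrome protein that regulates actin at the cell edge, had 185 and 213 CPM in WT and 77.4 and 144 CPM in KO. The log2 fold change was -0.91 ± 0.18 (edgeR sex-term fit, adjusted p = 0.0274), and its level fell by 1.25 on the log2 scale in replicate 1 and fell by 0.57 in replicate 2. In the fit without a covariate all 9 genes had an adjusted p of 0.267 (edgeR). Left-out fits with no covariate kept 9 of them past the edgeR threshold without KO replicate 2, 3 (Gfra1, Slit3 and Nhsl1) without KO replicate 1, 1 (Gfra1) without WT replicate 1 and 0 without WT replicate 2.

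**Figure D4:**
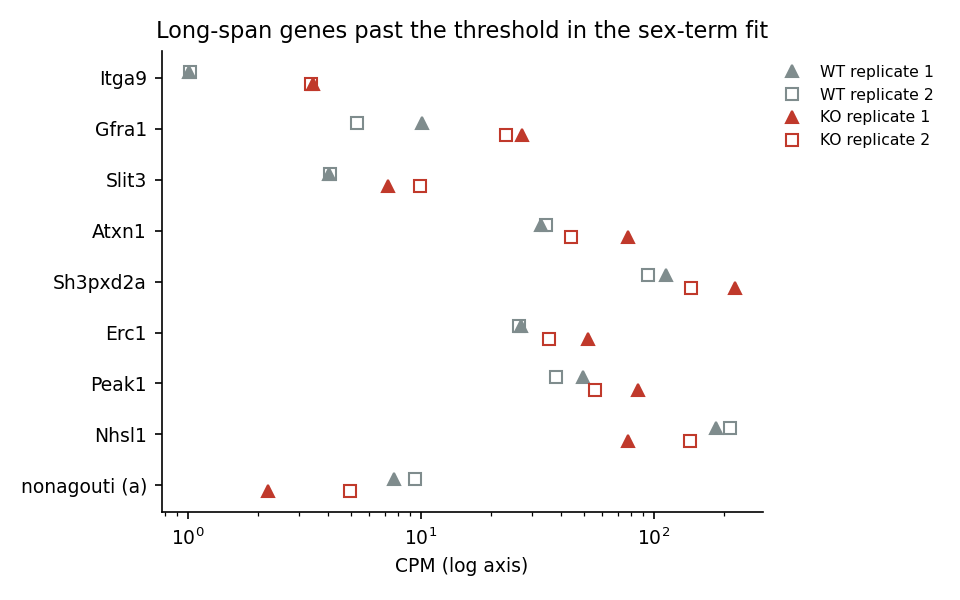
CPM on a log axis (x axis) for each of the 9 long-span genes past the threshold in the sex-term fit (y axis): grey, WT; red, KO; filled triangles, replicate 1; open squares, replicate 2. The red symbols lie to the right of the grey ones for the 7 higher genes and to the left for Nhsl1 and nonagouti, and in every gene but Slit3 replicate 1 is the more extreme KO library.

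The 10 longest genes did not pass the threshold in either fit. Macrod2, a hydrolase that removes ADP-ribose from proteins and the longest gene at 1997657 bases, had 5.23 and 5.68 CPM in WT and 4.98 and 5.74 CPM in KO. Fhit, a tumour suppressor at a common fragile site spanning 1611943 bases, had 2.95 and 2.93 CPM in WT and 3.84 and 2.82 CPM in KO. Pde4d, a cyclic AMP phosphodiesterase of 1503513 bases, had 129 and 131 CPM in WT and 122 and 129 CPM in KO. In Macrod2 and Fhit the genotypes overlapped, and in Pde4d both KO libraries lay just below both WT libraries. Wwox, another tumour suppressor at a fragile site, had 6.20 and 7.41 CPM in WT and 7.23 and 7.87 CPM in KO. Celf2, an RNA-binding splicing regulator, had 547 and 532 CPM in WT and 631 and 569 CPM in KO, and its log2 fold change was 0.15 ± 0.14 (SE, fit without a covariate).

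Sdk1 and Camta1 had the largest differences among the longest genes. Sdk1, a cell adhesion molecule of the immunoglobulin superfamily, had 5.87 and 2.40 CPM in WT and 6.48 and 9.49 CPM in KO, and its log2 difference was 0.14 between the replicate 1 libraries and 1.95 between the replicate 2 libraries. Its adjusted p was 0.137 in the edgeR sex-term fit, and WT replicate 2 stood low. Camta1, a calmodulin-binding transcription activator, had 21.9 and 26.3 CPM in WT and 15.0 and 19.2 CPM in KO, with a log2 fold change of -0.50 ± 0.17 and an adjusted p of 0.124 in the edgeR sex-term fit. Both its KO libraries were below both WT libraries. Inpp4b, a phosphoinositide phosphatase, had 28.9 and 30.7 CPM in WT and 42.7 and 28.6 CPM in KO, so that only KO replicate 1 was high. Zbtb20, a zinc finger repressor, had 122 and 76.5 CPM in WT and 168 and 90.1 CPM in KO, where both replicate 1 libraries exceeded both replicate 2 libraries. Rora, a nuclear receptor of the ROR family, had 5.32 and 7.16 CPM in WT and 6.75 and 7.96 CPM in KO, with overlapping groups.

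By known role, each list of long genes given here had a median above 0, but few single genes passed the threshold. Lists overlap, and 159 members stand on none, with a median of 0.15 (76, or 47.8%, higher and 31, or 19.5%, lower in both pairs). For all 343 members these shares were 56.9% and 15.5%, and for all tested genes 35.5% and 36.7%. In the sex-term fit 1.01% of all tested genes were higher and 2.2% lower, so 0 or 1 call in a short list says little. Of 38 transcription factor and chromatin genes, 25 (65.8%) were higher and 6 (15.8%) lower in both pairs. Their median was 0.26 (female pair 0.38, male pair 0.07). They ran from -0.27 for Rfx3, a factor of cilium formation, to 0.85 for Atxn1, which was the 1 that passed in the sex-term fit. Of 31 genes of T cell receptor signalling, adaptors and kinases, 20 (64.5%) were higher and 8 (25.8%) lower in both pairs. They had a median of 0.27 (0.40 and 0.13) and 0 past the threshold. Their most abundant member, Themis, had 774 and 754 CPM in WT and 1143 and 876 CPM in KO, and Itpr2, an intracellular calcium channel, 549 and 500 CPM in WT and 1039 and 648 CPM in KO. In both genes the groups did not overlap and KO replicate 1 stood highest, and neither passed in the edgeR sex-term fit (adjusted p = 0.297 for Themis and 0.104 for Itpr2). The list ran from -0.40 for Prkag2, a subunit of the energy-sensing kinase AMPK, to 0.85 for Prkce, a protein kinase C.

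Of 46 genes of ubiquitin, membrane traffic, lipid and metabolic enzymes, 32 (69.6%) were higher and 4 (8.70%) lower in both pairs. Of all 343 members, 56.9% and 15.5% were. The list had a median of 0.30 (0.45 and 0.10) and 0 past the threshold. Vps13d, a lipid transfer protein, had 347 and 295 CPM in WT and 489 and 352 CPM in KO, and Mgat5, which branches N-glycans, 172 and 170 CPM in WT and 234 and 187 CPM in KO. Neither gene's groups overlapped. The list ran from -0.28 for Rnf220, a ubiquitin ligase, to 0.71 for Acaca, the cytosolic acetyl-CoA carboxylase.

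Of 19 common fragile site genes, 14 (73.7%; all members 56.9%) were higher and 1 (5.26%; all members 15.5%) lower in both pairs. They had a median of 0.31 (0.40 and 0.13) and 0 past the threshold. The list was not matched for span. Among all members of 500 kb or more, 73.0% were higher and 13.5% lower in both pairs, with a median of 0.31. Foxp1, a forkhead transcription factor of T cell quiescence, had 150 and 150 CPM in WT and 208 and 163 CPM in KO. Mad1l1, a mitotic checkpoint protein, had 141 and 154 CPM in WT and 142 and 144 CPM in KO, with no separation of the groups. Of 11 RNA-binding and RNA-processing genes, 8 (72.7%) were higher and 1 (9.09%) lower in both pairs, with a median of 0.18. Tnrc6b, a partner of Argonaute in microRNA silencing, had 503 and 393 CPM in WT and 596 and 420 CPM in KO, with overlapping groups. Of 10 genes of DNA repair, replication and division, 4 (40%) were higher and 1 (10%) lower in both pairs, with a median of 0.14 (0.31 and -0.03). Stag1, a cohesin subunit, had 141 and 137 CPM in WT and 199 and 153 CPM in KO.

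Transcripts of elongation factors, topoisomerases and splicing factors were read from a list of 51 genes. Of its 50 tested genes, 0 were higher (all tested genes 1.01%) and 1 (2.0%) lower (all tested genes 2.2%) in the sex-term fit, shares near or below those of all genes. The list's median log2 fold change was 0.01 (female pair 0.02, male pair 0.0044). Summed and scaled to library totals alone, it stood at 10624 and 10517 CPM in WT and 10226 and 10012 CPM in KO. The CPM of single genes also carry a TMM scaling factor, 0.919 for KO replicate 1 and 1.02 to 1.04 for the other libraries. On that scale KO replicate 1 would stand higher relative to the others, so the sums do not show that the list was lower in KO. The gene past the threshold was Snrnp70 (ENSMUSG00000063511, chr7:45376453-45395742), which encodes the U1-70K protein of the U1 particle that recognises 5′ splice sites. It had 1147 and 1134 CPM in WT and 511 and 748 CPM in KO, both KO libraries below both WT libraries and KO replicate 1 the lowest. Its log2 fold change was -0.88 ± 0.22 (edgeR sex-term fit, adjusted p = 0.0496).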

How the data were processed

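RNA of sorted DP thymocytes was selected on poly-T beads and made into libraries with the NEBNext Ultra kit, per the labels' protocols. That kit leaves the strand unmarked. The submitters' processing notes name HISAT2, Trim Galore 0.5.0, DESeq2, FastQC and featureCounts 1.6.4, with GRCm38 as the build. Per the file headers, the authors deposited whole counts of fragments over the exons of each Ensembl 98 gene from featureCounts 1.6.3, without strand and without fragments shared by genes or by several places. A gene nested in an intron of a long gene is counted apart, but intron reads are counted nowhere, and antisense reads cannot be told apart. The length column of the deposited table served as exonic length.

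Spans come from the deposited exon coordinates. Symbols, biotypes and transcript sequences (for GC content) came from GENCODE M21 on GRCm38, which matched 55240 identifiers (98.2%). Genes were kept with filterByExpr, scaled with TMM factors (0.919 to 1.04) and tested in edgeR 4.0.16 (R 4.3.3, limma 3.58.1) by the quasi-likelihood F test with Benjamini-Hochberg adjustment at 0.05, with no covariate and 2 residual degrees of freedom. The sex-term fit adds the replicate number, which separates the sexes (Ddx3y had 2 and 14 counts in replicate 1 and 5384 and 3311 in replicate 2) and any batch shared by a number. CPM of single genes use library sizes scaled by the TMM factors, while CPM sums over a list use library totals alone. Pair differences are in log2 CPM (prior count 2). The p-values reflect only how far these libraries differ, and the floor of 3 counts covers counting error only. The edgeR step was tested on simulated counts, where 77% of 2-fold and 91% of 4-fold changes were recovered without the sex term. Those counts held no difference between replicate numbers and no deviating library such as KO replicate 1. These rates therefore do not carry over to the libraries. DESeq2 1.42.0 and limma-voom were alternatives, and the closing section gives the effect of these and of other scalings, filters, left-out libraries, minima and definitions of span.

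The members and the gene lists were chosen with earlier results of these data known. Named genes are the 10 longest members, up to 10 a direction past the threshold in the sex-term fit, up to 4 of each list past it or else its 2 most abundant, those next to both minima, and Chaf1b. The ends of each list's range, the most abundant genes per length, Pecam1, the markers past the threshold and the markers at 0 were named after their values were seen. The distance limit on start-site windows, the counts without KO replicate 1 and those without members that reach the count minimum through 1 genotype were also added then. The results of 1 list of long genes and of 1 marker gene are not reported here. Start-site windows were matched by symbol, chromosome and strand.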

Additional observations from a re-analysis of the deposited data

Results flagged for a closer look

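In 8 of the genes named by rule and in 3 lists the female pair and the male pair had opposite signs. Each pair is 1 KO and 1 WT library, so the difference between the sexes was not tested. Inpp4b was higher in KO by 0.56 on the log2 scale in replicate 1 and stood at -0.098 in replicate 2. Fhit stood at 0.37 and -0.051, Mad1l1 at 0.0077 and -0.099, and Macrod2 at -0.069 and 0.015. Of the genes next to the span and count minima, Pcbp3 stood at 0.078 and -0.42, Ksr2 at 0.76 and -0.11, Hecw2 at 0.030 and -0.20 and Runx2, just outside, at -0.69 and 0.096. The median of the 10 long genes of DNA repair, replication and cell division was 0.31 for the female pair and -0.027 for the male pair. Of the marker lists, that of NK and gamma-delta cells stood at 0.69 and -0.097 and that of neural long genes at 0.054 and -0.51, each from 1 tested gene. No gene of either list had over 17 counts in any library, so both values rest on few reads.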

How the results depend on the processing

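The number of long genes past the threshold moved by over 1.5 times under 6 of 19 alternatives to the fit without a covariate. It did so under 8 of 15 alternatives to the sex-term fit. Each of these fits was counted as an alternative to the other. The members' median, its difference from other genes and the median at 500 kb or more stayed above 0 under every alternative run on them. In the fit without a covariate the count of 0 became 40 with no low-count filter (11.7%; all tested genes 5.63%), 8 with DESeq2 (2.48%; 4.32%) and 9 with the replicate block (2.62%; 3.21%), and leaving out 1 library gave 0 (without WT replicate 2; all tested genes 0.00634%) to 168 (without KO replicate 2; 49.0%, all tested genes 32.3%). In the sex-term fit the count of 9 became 3 with library totals as scaling (0.875%; all tested genes 0.962%), 32 with no low-count filter (9.33%; 5.85%), 5 with a mean of at least 5 CPM (1.66%; 3.32%), 2 with robust dispersion (0.583%; 0.504%) and 0 with no replicate block (all tested genes 0.00664%). It was 19 of 1132 with a span minimum of 100 kb, 2 of 148 with 300 kb and 4 of the 212 members without exon overlap. Of all tested genes, 3.21% passed in the sex-term fit. The sex-term fit has no residual degrees of freedom with a library left out, and in left-out fits the lone library of a genotype is assumed to vary like the other pair. The correlation of change with span within the members was 0.089 with a span minimum of 300 kb and 0.075 with a summed count of at least 50, and 0.089 to 0.15 with a library left out.

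With a library left out, the members' median log2 fold change ran from 0.085 (without KO replicate 1) to 0.34 (without KO replicate 2), its difference from other genes from 0.098 to 0.36, the median of genes of 500 kb or more from 0.11 to 0.50, and the gain in share of counts from 0.16 to 0.59 percentage points. Library totals gave a members' median of 0.13 and a difference of 0.22. Within quintiles of exonic length the difference averaged 0.15. Across all tested autosomal genes the correlation with span was 0.081 with no low-count filter and 0.22 with a mean of at least 5 CPM. The slope per 10-fold span was 0.21 within the members and 0.075 across all genes, and 0.18 and 0.099 with exonic length, level and GC content as further terms. Of 29 named genes, 11 passed the threshold with the replicate block and none of these 11 without it. Most of these 11 were named because they passed with the block, so their number does not measure how named genes depend on it. Same-numbered libraries deviated together from their group means (r = 0.43 across 14400 genes), but with 2 numbers this does not establish pairing.

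With a library left out, the log2 fold change ran from -0.087 to 0.41 for Tnrc6b, from -0.054 to 0.38 for Fhit, from -0.053 to 0.51 for Inpp4b and from -0.14 to 0.76 for Zbtb20, each negative only without KO replicate 1. It ran from -0.11 to 0.017 for Mad1l1, positive only without WT replicate 2, and from -0.14 to 0.076 for Macrod2, positive without KO replicate 1 and without WT replicate 2 (0.037). Except where fewer genes or libraries entered, the cause was not tested. With 2 libraries a genotype, single genes with small differences lie within the spread between libraries, and members near 200 counts rest on few reads in each.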
